A study of Mus musculus with 6 samples.

Results

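The genes described here are 10 components of the inflammasome pathway, taken from the deposited expression table by gene name: Nlrp3, Aim2, Naip2 and Naip5, which encode sensors, Nek7, Pycard, Casp1, Casp4, Gsdmd and Il18. All 10 names were found among the 34745 genes of the table. RNA was measured by RNA sequencing in RAW 264.7 cells, a mouse macrophage line established from a tumour induced by Abelson leukaemia virus. The cells had received either DMSO, a solvent used as the control, or bisphenol AP (BPAP), a relative of bisphenol A that carries a phenyl group on its bridging carbon. Each group had 3 libraries, and all 6 came from this line, for which no genotype or transgene was labelled. The comparison addresses how BPAP exposure changed the macrophage transcriptome. The sources used here do not give the dose, the exposure time or whether the libraries came from separate cultures.

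Inflammasomes are protein platforms that macrophages assemble in the cytosol after a sensor meets a sign of infection or damage. NLRP3 responds to ion fluxes and membrane stress and needs the kinase-family protein NEK7, AIM2 binds double-stranded DNA, and the NAIP proteins bind bacterial ligands and then engage NLRC4. NLRP3 and AIM2 reach caspase-1 through the adaptor ASC, encoded by Pycard, and caspase-1 then matures interleukin-1β and interleukin-18 and cleaves gasdermin D, whose fragments form membrane pores. Mouse Casp4 encodes the protein also called caspase-11, which binds bacterial lipopolysaccharide directly and cleaves gasdermin D without a separate sensor. RAW 264.7 cells have been reported to lack ASC.

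Library totals ranged from 11084705 to 13806559 counts. Levels are given as CPM, counts divided by the library size after TMM normalisation. Differences were tested with edgeR's quasi-likelihood test over the 11711 genes that passed its expression filter, with Benjamini-Hochberg adjustment and a threshold of 0.05. Of those genes, 1901 were higher and 1814 lower in BPAP. Of 10 macrophage markers, 9 had counts and Mertk was at 0. Their summed level was 4551 to 5168 CPM in DMSO and 5078 to 5493 CPM in BPAP, with Lyz2 and Cd68 the most abundant. Of these 9 markers, all tested, 5 were higher and 2 (Csf1r and Ptprc) lower, beside 16.2% and 15.5% of all genes tested. Itgam has a further entry in the table, which is not in this sum or count. The entry used had a log2 fold change of -0.79 (adjusted p 0.0889 in edgeR). The other was at 97.0 CPM in DMSO and 98.5 CPM in BPAP, with a log2 fold change of 0.02 (adjusted p 0.944). Summed markers of B cells, neutrophils, epithelial cells and fibroblasts stayed at or below 1.06 CPM in every library. T cell markers summed to 4.59 to 5.87 CPM in DMSO and 6.84 to 9.24 CPM in BPAP. Lck made up most of that sum, and Cd3e and Cd3g were at 0. Endothelial markers summed to 5.58 to 8.41 CPM over the 6 libraries, mostly from Vwf, with Cdh5 and Emcn at 0. The part of these marker differences in the results below was not tested. In bulk RNA, fewer cells expressing a gene and less RNA per cell cannot be told apart.

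Pycard had 0 counts in each of the 6 libraries. Over all 74350574 counts, a count of 0 allows a level of up to 0.0403 CPM, and in single libraries up to 0.217 to 0.271 CPM, for counting error only. The gene lies on the minus strand of chromosome 7, from 127989708 to 127993867 in GRCm38, with 3 merged exons. A count of 0 in every library was also found for 8130 of the 21556 protein-coding genes, or 37.7%. Counts were found for genes on both sides of Pycard. Kat8, a histone acetyltransferase gene, was at 15 ± 0.889 CPM in DMSO and 21.5 ± 4.77 CPM in BPAP (SD, n = 3). Trim72, on the other side with a start 10.1 kb away, had 2, 5 and 3 counts in DMSO and 0, 2 and 0 counts in BPAP.

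The promoter of Pycard is shown because its RNA was the one that was not detected, and the promoter of Aim2 because its RNA was the most abundant per length. Both run from 250 bases before to 50 bases after the RefSeq start in GRCm38.p6, at chr7:127993818-127994117 on the minus strand and chr1:173420354-173420653 on the plus strand. Capitals mark exact matches to GAGGAAGT, a motif of the macrophage factor PU.1, searched on both strands. Shorter or inexact matches were not searched.
Pycard promoter: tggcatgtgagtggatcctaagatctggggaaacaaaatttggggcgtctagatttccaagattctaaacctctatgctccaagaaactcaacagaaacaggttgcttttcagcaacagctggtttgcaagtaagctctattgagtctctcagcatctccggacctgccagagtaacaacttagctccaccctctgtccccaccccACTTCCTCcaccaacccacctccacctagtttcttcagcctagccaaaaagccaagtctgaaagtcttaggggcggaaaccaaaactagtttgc
Aim2 promoter: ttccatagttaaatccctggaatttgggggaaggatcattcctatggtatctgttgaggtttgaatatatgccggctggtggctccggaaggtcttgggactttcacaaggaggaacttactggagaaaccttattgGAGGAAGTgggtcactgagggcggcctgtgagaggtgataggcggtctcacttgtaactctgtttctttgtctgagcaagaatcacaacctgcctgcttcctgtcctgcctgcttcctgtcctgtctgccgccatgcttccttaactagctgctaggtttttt
Promoters were matched in the RefSeq table for 9 of the 10 genes, without Gsdmd. Of these 9 genes, Pycard and Aim2 each held 1 GAGGAAGT, at 44 bases before the start on the opposite strand and at 113 bases before the start on the gene's own strand. The motif was present in 3.20% of 32851 promoters of the same length. The interferon regulatory factor core, searched on both strands, was in none of the 9 genes' windows and in 3.44% of all promoters. The Pycard window held 3 CpG dinucleotides, against a median of 7 over all promoters.

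The detected genes spanned a wide range of levels per length. In CPM per kilobase of merged exons, Aim2 was highest in DMSO at 83.5 ± 5.01 (SD, n = 3), above 97.4% of the 16539 genes with a count and an exon length. Casp1 followed at 33.7 ± 1.28, then Gsdmd at 23.4 ± 0.908 and Nek7 at 21.8 ± 13.0 CPM per kilobase (SD, n = 3). A lower group held Naip5 at 7.28 ± 0.804, Casp4 at 6.73 ± 0.429 and Naip2 at 6.70 ± 0.368 CPM per kilobase (SD, n = 3). Nlrp3 at 4.80 ± 0.496 and Il18 at 4.63 ± 0.00949 CPM per kilobase were the lowest detected (SD, n = 3), and still above 57.4% and 56.7% of the same genes. Neighbours in this order overlapped between libraries for Gsdmd and Nek7, Naip5 and Casp4, Casp4 and Naip2, and Nlrp3 and Il18. In BPAP, Naip2 at 9.37 ± 0.365 CPM per kilobase (SD, n = 3) stood above Casp4 and Naip5, and Il18 at 7.44 ± 0.600 CPM per kilobase (SD, n = 3) above Naip5 and Nlrp3.

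**Figure D1:**
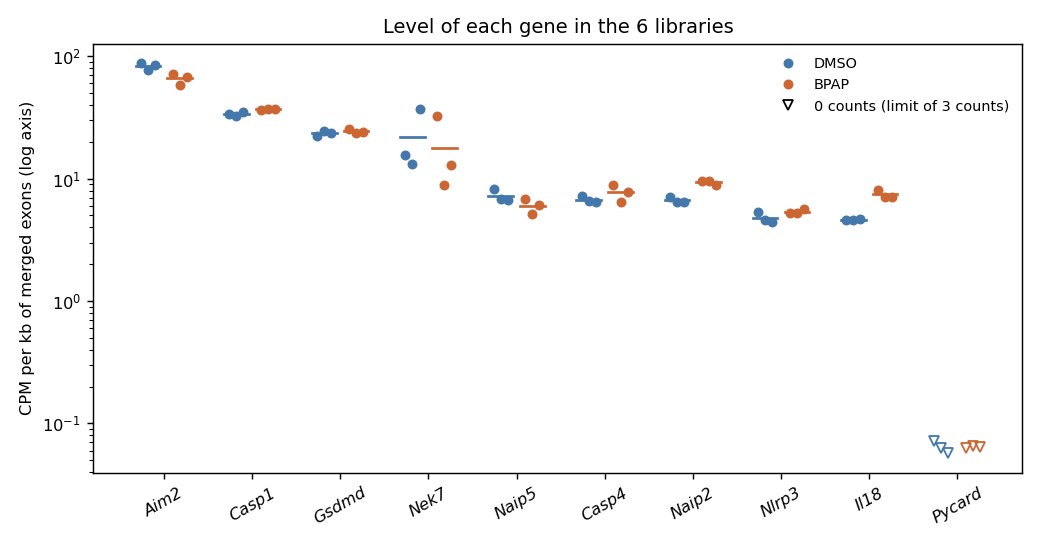
CPM per kilobase of merged exons on a log axis for the 10 genes, with 1 point per library and a line at each group mean (n = 3). Aim2 lies highest, Nek7 is the gene whose libraries are spread most widely, and Pycard is drawn as open triangles at the limit that 0 counts allow.

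The order depends partly on the gene length used. In the deposited FPKM values, Il18 moved from the ninth place to the sixth in DMSO, at 6.76 ± 0.169 FPKM (SD, n = 3), above Naip2 at 6.08 ± 0.192 FPKM and Casp4 at 5.20 ± 0.205 FPKM (SD, n = 3). The length behind its FPKM was 714 bases against 1031 bases of merged exons. The deposited locus of Il18, chromosome 9 from 50575273 to 50581837 on the plus strand, starts after the GENCODE M21 start at 50554827 and covers 714 bases of its merged exons. For Nek7 the FPKM length was 14033 bases against 7376 bases of merged exons, and its DMSO level was 11.6 ± 7.13 FPKM (SD, n = 3). Aim2, Casp1 and Gsdmd were the highest genes on both scales, but the lead of Aim2 was smaller in FPKM. Its FPKM length was 5456 bases against 3501 bases of merged exons. In DMSO, Aim2 was at 54.1 ± 2.86 and Casp1 at 34.1 ± 1.57 FPKM (SD, n = 3). In BPAP they were at 41.9 ± 4.21 and 36.4 ± 0.318 FPKM (SD, n = 3).

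Comparing BPAP with DMSO, Il18 and Naip2 rose and Aim2 fell, and the other 6 tested genes did not pass the threshold. These are 3 of 9 tested genes, beside 31.7% of all genes tested, so the share called was near the background. The 2 rises stand beside 16.2% of all genes called higher and the 1 fall beside 15.5% called lower. Libraries of the groups did not overlap for 4 of the 9 genes (Il18, Naip2, Aim2 and Casp1), beside 49.0% of all genes tested. The median log2 fold change of the 9 genes was 0.13, and that of all genes tested 0.02. Correcting each library for its dependence on exon length and on GC content (the length and GC correction below) also gave 3 calls, beside 23.4% of all genes, but they were Casp4, Naip2 and Aim2. Leaving out the library DMSO 3 and the library BPAP 1 together, a setting added once the values were known, left 0 of 9 genes past the threshold and 4 at an unadjusted p under 0.05 in edgeR. The number of calls over all genes also fell in this smaller fit and is given in the closing section. The share of all genes at an unadjusted p under 0.05 is not given for it, so these 2 counts have no background share beside them.

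**Figure D2:**
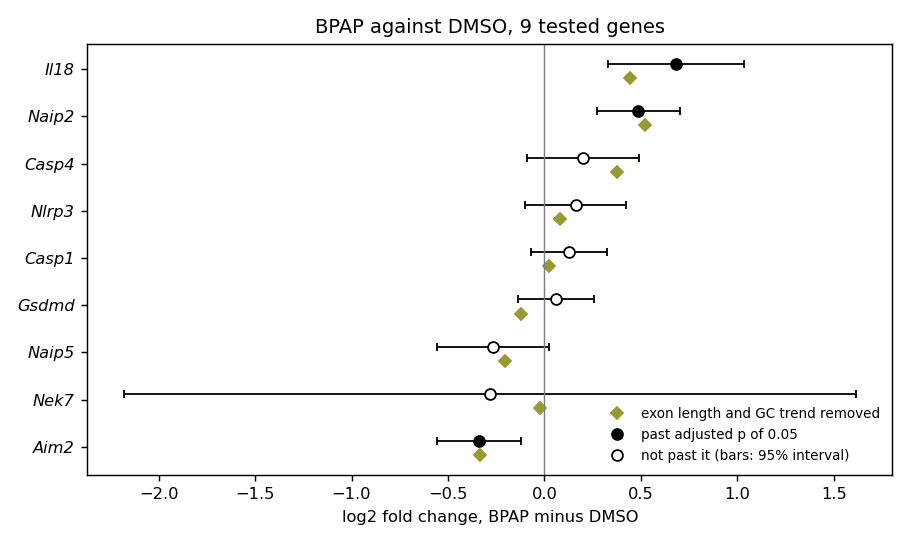
Log2 fold change, BPAP minus DMSO, of the 9 tested genes with 95% intervals (n = 3 libraries per group). Filled circles passed an adjusted p of 0.05 and diamonds give the value after the length and GC correction. Il18 and Naip2 lie to the right of 0 and Aim2 to the left, and the interval of Nek7 is the widest.

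Among the sensors, Aim2, the receptor for cytosolic DNA, fell. Its level was 306, 273 and 299 CPM in DMSO and 252, 204 and 237 CPM in BPAP. Every BPAP library lay below every DMSO library. The log2 fold change was -0.34 with a standard error of 0.10, a 1.26-fold lower level, and edgeR gave an adjusted p of 0.0252. The call was lost without DMSO 1, at an adjusted p of 0.0601, and without DMSO 3, at 0.0757, and adjusted p ranged from 0.00859 to 0.0762 over all 14 alternatives. Aim2 lies on chromosome 1 from 173350879 to 173466040 on the plus strand, with 14 merged exons. Its RefSeq promoter shown above lies inside that span. The genes with the most similar pattern over the 6 libraries, by Pearson correlation of log2 CPM, were Ddx26b at 0.999, Zkscan1 at 0.997 and Nae1 at 0.996. These are the highest of 8849 genes compared, and the correlation includes the group difference itself, so such values do not show shared regulation.

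Nlrp3, the sensor that NEK7 binds, was at 21.8, 18.7 and 18 CPM in DMSO and 21.1, 21.2 and 23.0 CPM in BPAP. The groups overlapped, since DMSO 1 was above 2 of the BPAP libraries. Its log2 fold change was 0.16, with a 95% interval from -0.10 to 0.42 and an adjusted p of 0.316 in edgeR. It lies on chromosome 11 from 59541568 to 59566956 on the plus strand, with 11 merged exons. Within each library, Aim2 counts were 14.1, 14.6 and 16.6 times those of Nlrp3 in DMSO and 12, 9.64 and 10.3 times in BPAP. The ratios of the groups did not overlap, and their log2 difference was -0.51. A 2-sided exact permutation test gave p = 0.1, the smallest that 3 against 3 libraries allow, or 0.15 adjusted over the 3 ratios tested.

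Naip2 and Naip5 encode receptors for different bacterial proteins, the inner rod of type III secretion systems for NAIP2 and flagellin for NAIP5. Naip2 was at 34.5, 31.4 and 31.5 CPM in DMSO and 46.5, 46.4 and 43.4 CPM in BPAP. It rose, with all BPAP libraries above all DMSO libraries. In log2 terms it changed by 0.49 with a standard error of 0.10, a 1.40-fold higher level, with an adjusted p of 0.00524 in edgeR. The adjusted p of Naip2 ranged from 0.00103 to 0.0669 over 14 alternatives, and its call was lost when DMSO 3 and BPAP 1 were left out together. Naip5 was at 42.7, 35.8 and 35.1 CPM in DMSO and 35.6, 26.8 and 31.8 CPM in BPAP. Its groups overlapped, and the log2 fold change was -0.27, with a 95% interval from -0.56 to 0.02 and an adjusted p of 0.140 in edgeR. The genes most similar to Naip2 over the 6 libraries were Slamf9 (r = 0.998), Tpst2 (r = 0.997) and 2700060E02Rik (r = 0.994). They too are the highest of 8849 genes, with the group difference included.

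Naip2 counts relative to Naip5 counts were 0.809, 0.877 and 0.896 in DMSO and 1.31, 1.73 and 1.36 in BPAP. Naip5 had more counts than Naip2 in each DMSO library, and Naip2 had more in each BPAP library. The ratio was 1.69-fold higher in BPAP, and a 2-sided exact permutation test gave p = 0.1, the smallest the design allows, or 0.15 adjusted over 3 ratios.

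**Figure D3:**
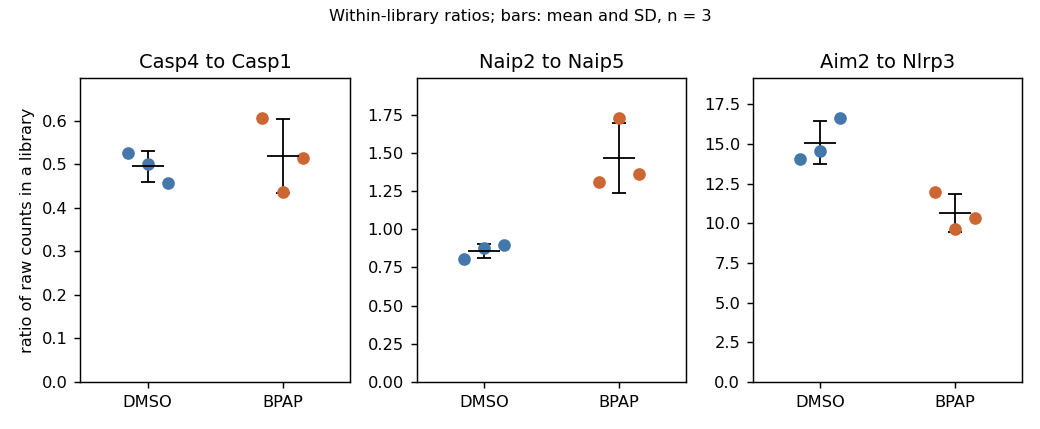
Ratios of raw counts within each library for Casp4 to Casp1, Naip2 to Naip5 and Aim2 to Nlrp3, with the mean and SD of 3 libraries per group and axes from 0. The Naip2 to Naip5 ratio lies below 1 in all DMSO libraries and above 1 in all BPAP libraries, and the Casp4 to Casp1 ratios overlap.

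Naip2 and Naip5 are neighbours on the minus strand of chromosome 13, from 100144063 to 100202092 and from 100211739 to 100246323, with 16 and 14 merged exons. Their coding sequences were identical at 89.99% of 4205 aligned bases. Naip5 and its closer copy Naip6 were identical at 97.0% of 4209 aligned bases. The longest identical runs are shown because a read from inside them cannot be assigned to 1 of the genes. They cover coding bases 1746 to 1885 of Naip2 and 2338 to 2566 of Naip5, counted from the start codon.
Naip2 and Naip5: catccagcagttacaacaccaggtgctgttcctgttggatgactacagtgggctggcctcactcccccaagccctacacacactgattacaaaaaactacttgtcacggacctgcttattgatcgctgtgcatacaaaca
Naip5 and Naip6: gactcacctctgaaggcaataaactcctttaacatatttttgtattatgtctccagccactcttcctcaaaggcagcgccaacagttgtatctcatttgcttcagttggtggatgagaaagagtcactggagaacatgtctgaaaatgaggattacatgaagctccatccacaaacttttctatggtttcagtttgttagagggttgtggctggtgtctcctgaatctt
Of all 50-base stretches of the annotated transcripts, 19.1% of those of Naip2 and 36.9% of those of Naip5 also occurred in transcripts of other genes, mostly of the same family. With 100-base stretches the shares were 4.44% and 16.2%. How reads that match several genes were counted is not stated in the sources used here, so the values of Naip2 and Naip5 are uncertain to that extent. Naip6 was at 24.6 ± 7.01 CPM in DMSO and 20.8 ± 3.84 CPM in BPAP (SD, n = 3), with a log2 fold change of -0.24 and an adjusted p of 0.436 in edgeR. Naip1 was at 0.847 and 0.684 CPM on average, below the expression filter. Naip3, a further copy of the family looked up after the values were seen, had 4, 5 and 5 counts in DMSO and 1, 0 and 1 in BPAP.

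The promoters of Naip2 and Naip5, whose count ratio separated the groups, are shown with capitals for runs of at least 12 identical bases in their alignment. They lie at chr13:100202073-100202372 and chr13:100247287-100247586, both on the minus strand of GRCm38.p6 (RefSeq). The RefSeq start of Naip5 lies upstream of the deposited locus.
Naip2 promoter: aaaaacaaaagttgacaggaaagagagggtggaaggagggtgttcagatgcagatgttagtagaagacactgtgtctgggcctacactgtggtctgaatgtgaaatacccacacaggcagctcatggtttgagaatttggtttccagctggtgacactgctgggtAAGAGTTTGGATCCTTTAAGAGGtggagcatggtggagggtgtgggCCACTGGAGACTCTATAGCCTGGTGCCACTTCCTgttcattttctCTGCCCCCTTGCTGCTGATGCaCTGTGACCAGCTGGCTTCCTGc
Naip5 promoter: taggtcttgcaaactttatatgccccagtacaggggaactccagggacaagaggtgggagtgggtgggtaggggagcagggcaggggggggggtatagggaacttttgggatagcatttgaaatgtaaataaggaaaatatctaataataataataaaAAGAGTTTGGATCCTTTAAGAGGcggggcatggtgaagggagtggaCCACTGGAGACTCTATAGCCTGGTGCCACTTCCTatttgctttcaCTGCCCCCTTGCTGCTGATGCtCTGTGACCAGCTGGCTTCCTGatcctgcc
A local alignment covered 134 columns, of which 123 were identical, or 91.8%. The 4 marked runs hold 99 bases, the longest of them 34. The upstream parts of the windows lay outside the alignment. The motif TATAAA, searched on both strands, was present in 13.6% of all promoters. It occurred once in the Naip5 window, 236 bases before the start on the opposite strand, and not in that of Naip2.

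Nek7 varied more between libraries of 1 group than between the groups. Its level was 115, 97.1 and 271 CPM in DMSO and 238, 65.5 and 94.5 CPM in BPAP. DMSO 3 and BPAP 1 stood apart from the other 4 libraries, and the groups overlapped. The highest library was 2.79 times the lowest in DMSO and 3.63 times in BPAP. The within-group SD of log2 CPM was 0.88, the 27th widest of 8850 genes with at least 10 CPM, whose median was 0.14. The log2 fold change was -0.28, with a 95% interval from -2.18 to 1.61 and an adjusted p of 0.792 in edgeR. It was -1.01 without BPAP 1 (adjusted p 0.314), 0.32 without DMSO 3 (adjusted p 0.771) and -0.41 without both (adjusted p 0.155), so no direction can be given at this spread. Nek7 lies on the minus strand of chromosome 1 from 138482875 to 138620141, with 11 merged exons. It overlaps the antisense gene Gm28501 by 118 exon bases, and that gene had 0 counts in every library.

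**Figure D4:**
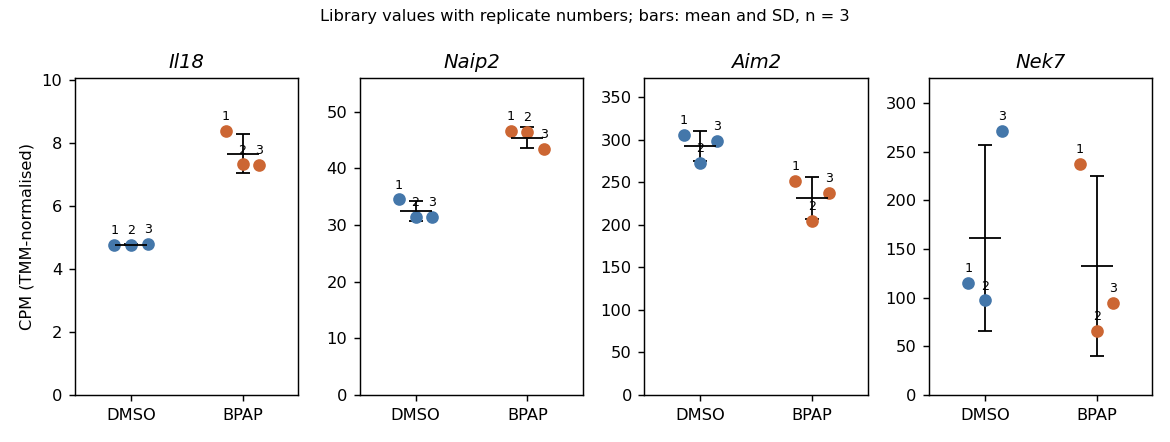
CPM by library for Il18, Naip2, Aim2 and Nek7, numbered by replicate, with mean and SD (n = 3) and axes from 0. The BPAP points of Il18 and Naip2 lie above and those of Aim2 below all DMSO points, and for Nek7 DMSO 3 and BPAP 1 lie above the other 4 libraries.

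The caspases and gasdermin D were detected in every library and did not pass the threshold. Casp1, the protease that matures interleukin-18, was at 50.9, 48.4 and 52.2 CPM in DMSO and 54.6, 55.0 and 55.9 CPM in BPAP. All BPAP libraries lay above all DMSO libraries, but the log2 fold change was 0.13, with a 95% interval from -0.07 to 0.32 and an adjusted p of 0.295 in edgeR. After the length and GC correction it was 0.02. Casp1 lies on the plus strand of chromosome 9 from 5298517 to 5307265, with 10 merged exons, directly before Casp4 at 5308828 to 5336783, with 9 merged exons.

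Casp4 was at 26.8, 24.3 and 23.9 CPM in DMSO and 33.1, 24.1 and 28.8 CPM in BPAP. BPAP 2 lay among the DMSO libraries, and BPAP 1 was the highest. The log2 fold change was 0.20, with a 95% interval from -0.09 to 0.49 and an adjusted p of 0.271 in edgeR. After the length and GC correction it passed the threshold, at a log2 fold change of 0.38 and an adjusted p of 0.0328, the lowest of 14 alternatives, which reached 0.870. Casp4 counts relative to Casp1 counts were 0.527, 0.501 and 0.457 in DMSO and 0.607, 0.437 and 0.515 in BPAP. These ratios overlapped (2-sided exact permutation p = 0.8, adjusted 0.8 over 3 ratios). The coding sequences of Casp1 and Casp4 were identical at 61.1% of 1103 aligned bases, with no identical run over 12 bases, and no 50-base stretch of a Casp1 transcript occurred in another gene.

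Gsdmd, the pore-forming substrate of both caspases, was at 53.4, 57.7 and 55.6 CPM in DMSO and 60.5, 56.5 and 57.1 CPM in BPAP. The groups overlapped. Its log2 fold change was 0.06, with a 95% interval from -0.14 to 0.26 and an adjusted p of 0.629 in edgeR. After the length and GC correction it was -0.12. Gsdmd lies on chromosome 15 from 75862339 to 75867404 on the plus strand, with 10 merged exons.

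Il18, the cytokine precursor gene, rose. It was at 4.77, 4.77 and 4.79 CPM in DMSO and 8.38, 7.32 and 7.30 CPM in BPAP. All BPAP libraries were above all DMSO libraries. These levels rest on 52, 61 and 68 counts in DMSO and 103, 88 and 89 counts in BPAP. On the log2 scale the rise was 0.68 with a standard error of 0.16, a 1.60-fold higher level, and the adjusted p was 0.0103 in edgeR. The coefficient of variation between DMSO libraries was 0.205%, below the 12.9% that counting error alone gives at these counts, so the printed SD understates the error of the DMSO level. After the length and GC correction the log2 fold change was 0.44 and the adjusted p 0.0605, within a range of 0.00323 to 0.103 over 14 alternatives. Of 8850 genes compared, those most similar in pattern to Il18 were Pdcd2 (r = 1.00), Fcgr1 (r = 0.999) and Decr2 (r = 0.999), over 6 libraries that include the group difference itself. Fcgr1 encodes a high-affinity receptor for antibodies. It is one of the 5 macrophage markers that were higher in BPAP, while 2 others were lower.

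Il1b, the other main cytokine substrate of caspase-1, had 4, 3 and 1 counts in DMSO and 0, 2 and 1 counts in BPAP, so a change was not detectable at this depth. Of the 13 genes listed for the interleukin-1 family and its receptors, 7 were tested and Il18rap alone passed, with a lower level, beside 31.7% of all genes called and 15.5% called lower. Il18rap, a subunit of the interleukin-18 receptor, fell by 0.88 on the log2 scale, with a standard error of 0.25, from 5.83 ± 1.49 CPM to 3.16 ± 0.677 CPM (SD, n = 3), with an adjusted p of 0.0224 in edgeR. Its adjusted p was 0.0698 without BPAP 1, 0.0600 without BPAP 3, 0.0804 without DMSO 1, 0.0586 without DMSO 2 and 0.0577 after the length and GC correction. The receptor's other subunit gene, Il18r1, had 0 counts in every library. The median log2 fold change of the 7 genes was 0.08.

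The other pathway genes were described through 7 lists of 103 genes in all. Of these, 102 were found in the table, 14 had 0 counts in every library and 75 were tested. With BPAP, 5 of these were higher and 8 lower, beside 16.2% and 15.5% of all genes tested. Their median log2 fold change was -0.04, against 0.02 for all genes. Libraries of the groups did not overlap for 25 of the 75, beside 49.0% of all genes tested. Calls in the lists below are to be read against those same shares, 31.7% of all genes in either direction. With DMSO 3 and BPAP 1 both left out, 4 of these 13 calls remained (Fadd, Chmp4b, Txnip and Il18rap), and the adjusted p of the other 9 was 0.0543 to 0.226 in edgeR. Calls over all genes also fell in that fit, as given in the closing section, so losing calls was not particular to these lists. The share of all calls that remained is not given here.

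Of 19 other sensors and sensor partners, 13 were tested, none was higher and only Nlrc5 was lower, beside 31.7% of all genes called. The median log2 fold change of these 13 was -0.14. Nlrc5, a regulator of MHC class I genes, fell from 44.5 ± 1.52 to 33.1 ± 1.75 CPM (SD, n = 3), a log2 fold change of -0.43 with an adjusted p of 0.00895 in edgeR. Nlrc4, the partner that both NAIP proteins engage, was at 4.01 CPM in DMSO and 3.64 CPM in BPAP, with a log2 fold change of -0.13, a 95% interval from -0.57 to 0.30 and an adjusted p of 0.627 in edgeR. Nlrp1a, Nlrp6 and Nlrp12 had 0 counts in every library.

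Of 11 other caspases and death-domain partners, 10 were tested and Fadd alone passed, beside 31.7% of all genes called. The median log2 fold change of these 10 was 0.05. Fadd, the adaptor of death receptors, rose from 4.85 ± 0.719 to 10.0 ± 1.27 CPM (SD, n = 3), a log2 fold change of 1.04, or 2.05-fold, with an adjusted p of 0.00262 in edgeR. In limma on log2(FPKM + 1) the log2 fold change was 0.65. Its mean FPKM was 1.26 in DMSO and 2.54 in BPAP, and adding 1 to values this low shrinks the fold change. Casp12 had 0 counts in every library.

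Of 16 genes for pores and for membrane rupture or repair, 9 were tested, and 4 were higher and none lower, beside 16.2% and 15.5% of all genes. Their median log2 fold change was 0.14. Chmp4b, a subunit of the ESCRT membrane repair machinery, rose from 220 ± 5.99 to 299 ± 11.3 CPM (SD, n = 3), with an adjusted p of 0.00328 in edgeR. After the length and GC correction its log2 fold change was 0.23, against 0.44. Gsdme, the gasdermin cleaved by caspase-3 and deposited under the name Dfna5, rose from 3.57 ± 0.356 to 5.53 ± 0.328 CPM (SD, n = 3), with an adjusted p of 0.0235. For Gsdme the correction gave a log2 fold change of 1.10, against 0.64. The Gsdme call was lost without BPAP 1 (adjusted p 0.0663), BPAP 3 (0.0613), DMSO 2 (0.0640) or DMSO 3 (0.0876), and in DESeq2 (0.0601). Ninj1, which ruptures the plasma membrane of dying cells, rose from 76.9 ± 4.88 to 108 ± 23.3 CPM (SD, n = 3), with an adjusted p of 0.0290 in edgeR. The Ninj1 call was lost when any library but BPAP 3 was left out, at adjusted p values of 0.0644 without BPAP 1, 0.0590 without BPAP 2, 0.118 without DMSO 1, 0.0532 without DMSO 2 and 0.0843 without DMSO 3. It was also lost after the length and GC correction, at a log2 fold change of 0.24 against 0.48 and an adjusted p of 0.167, and in limma on FPKM, at 0.0620. The channel gene Panx1, named after its values were seen, was at 10.3 ± 0.530 CPM in DMSO and 13.7 ± 1.67 CPM in BPAP (SD, n = 3), with an adjusted p of 0.0460 in edgeR. That p was 0.0672 to 0.138 without BPAP 1, BPAP 2, DMSO 1, DMSO 2 or DMSO 3, 0.0806 in DESeq2 and 0.0654 without a filter on low counts. The gasdermin genes Gsdma, Gsdma2, Gsdma3, Gsdmc, Gsdmc2 and Gsdmc3 had 0 counts in every library.

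Of 22 genes that trigger or license NLRP3, all were tested, Txnip and Hdac6 were lower and none was higher, beside 15.5% and 16.2% of all genes. Their median log2 fold change was -0.10. Txnip, the thioredoxin-binding protein gene, was at 1783 ± 136 CPM in DMSO and 723 ± 272 CPM in BPAP (SD, n = 3). It fell by 1.302 on the log2 scale, or 2.47-fold, with an adjusted p of 0.0190 in edgeR. The Txnip call was lost without BPAP 3 (adjusted p 0.0525), DMSO 1 (0.0577), DMSO 2 (0.0602) or DMSO 3 (0.0527), and without a filter on low counts (0.0606). With the replicate number as a block, the adjusted p of Txnip was 0.0641. Hdac6, a cytoplasmic deacetylase, fell from 26.1 ± 1.76 to 19.95 ± 1.10 CPM (SD, n = 3), with an adjusted p of 0.0239 in edgeR. The Hdac6 call was lost without BPAP 1 (adjusted p 0.0608), BPAP 3 (0.0751), DMSO 1 (0.0630) or DMSO 2 (0.0767).

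Of 13 genes listed as brakes on inflammasomes or on inflammatory signalling, 10 were tested, and 4 were lower and none higher, beside 15.5% and 16.2% of all genes. Their median log2 fold change was -0.24. Atg16l1, an autophagy gene, fell from 90.5 ± 6.68 to 65.5 ± 4.68 CPM (SD, n = 3), with an adjusted p of 0.00616 in edgeR. Its log2 fold change was -0.28 after the length and GC correction, against -0.47. Cyld, a deubiquitinase gene, fell from 143 ± 11.7 to 106 ± 12.3 CPM (SD, n = 3), with an adjusted p of 0.0133, and Tnfaip3, which encodes A20, fell from 55.0 ± 4.09 to 32.9 ± 9.23 CPM (SD, n = 3), with an adjusted p of 0.0138. The Cyld call was lost without DMSO 3 (adjusted p 0.0554) and after the length and GC correction (0.281), and the Tnfaip3 call without BPAP 2 (0.0694). Dpp8, a peptidase gene named after its values were seen, was at 202 ± 3.98 CPM in DMSO and 172 ± 8.18 CPM in BPAP (SD, n = 3) and passed at an adjusted p of 0.0491, and leaving out any 1 of the 6 libraries gave 0.0636 to 0.118. After the length and GC correction, 2 of the 10 genes were lower and none higher, beside 23.4% of all genes called in either direction, the log2 fold change of Dpp8 was 0.06, and the list median was -0.09. The tested genes of this list had a median merged exon length of 7554 bases, against 3250 bases for the pore list. After the same correction, 4 of the 9 tested pore genes were higher and none lower, with Vps4b (adjusted p 0.0285 in edgeR) in place of Ninj1. The median of the pore list was then 0.23, against 0.14 before. The part of exon length in the calls of either list was not tested.

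Of 9 interferon-induced regulators, 8 were found in the table and 4 were tested. None passed in edgeR, 0 had an unadjusted p under 0.05, and DESeq2 and limma gave 0 adjusted calls and 1 unadjusted p under 0.05 each. Irf8, a transcription factor of macrophages, was at 94.1 CPM in DMSO and 104 CPM in BPAP, with a log2 fold change of 0.14, a 95% interval from -0.06 to 0.35 and an adjusted p of 0.260 in edgeR.

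**Figure D5:**
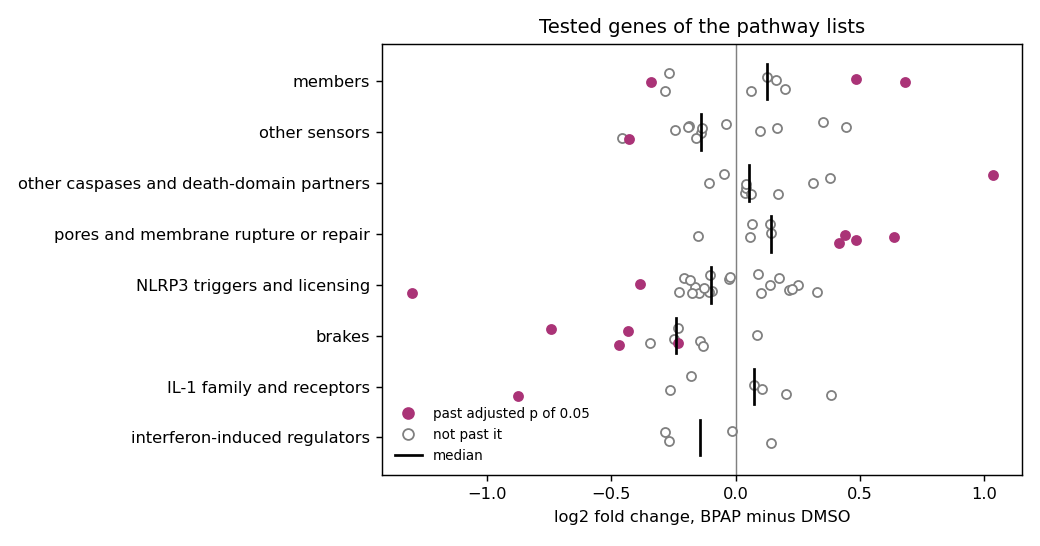
Log2 fold change, BPAP minus DMSO, of each tested gene in the set of 9 and in the 7 pathway lists, with filled points for an adjusted p under 0.05 and a bar at each median. The 4 filled points of the pore list lie to the right of 0 and the 4 of the brake list to the left, with the value of Txnip at -1.302 farthest from 0.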

How the data were processed

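RNA was measured in 3 DMSO and 3 BPAP libraries of RAW 264.7 cells, grouped by the treatment label. The authors deposited 1 table holding raw counts and FPKM values for every gene and library. Per the submitters' processing notes, HISAT2 2.0.4, StringTie 1.3.3b and edgeR were used with GRCm38, with no roles given. The sources used here do not give strand setting, poly(A) selection or annotation release. The deposited FPKM values were used for levels and 1 alternative, and all other values start from the deposited counts.

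Counts were filtered with edgeR's default filter, scaled by TMM and tested with edgeR 4.0.16 in R 4.3.3 (quasi-likelihood, treatment as the only term, 2-sided, Benjamini-Hochberg adjustment over all genes tested). P-values therefore measure only how these libraries vary, possibly for technical reasons. CPM values were divided by merged exon length from GENCODE M21, and promoters were taken from RefSeq. Alternatives were DESeq2 1.42.0 and its size factors, upper quartile scaling, no filter, limma 3.58.1 on log2(FPKM + 1) for genes with a mean FPKM of at least 1, a replicate block, removal of each library's exon length and GC trend (lowess, span 0.3), and leaving out each library. Correlations used log2 CPM with a prior count of 2.

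All 10 genes were named. Of each other list, up to 3 genes past the threshold were named, by smallest p, or the most abundant where none passed, and always Nlrc4, Naip1, Naip6, Casp12, Il1b and Txnip. For each of the 10 genes past the threshold, the 3 most correlated genes with at least 10 CPM were named. The genes and lists were chosen with earlier results of these data known. The symbol Irgb10 was not matched. A gene overlapping Pycard, Gm45205, was not analysed here.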

Additional observations from a re-analysis of the deposited data

How the results depend on the processing

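The number of genes past the threshold was 3715 and lay between 2728 and 4236 under the other settings with all libraries, and between 2511 and 3314 with 1 library left out. With DMSO 3 and BPAP 1 both left out, which was chosen after seeing the data, it was 1934 and the number among the 9 genes was 0, where Il18 had an adjusted p of 0.103, Aim2 0.0762 and Naip2 0.0669 in edgeR. That fit has 2 libraries per group. With all libraries, the number among the 9 genes was 3 under every setting, but the length and GC correction gave Casp4 in place of Il18. With 1 library left out it was 2 to 3, where Aim2 was the gene lost. With each library left out in turn, the log2 difference of the Casp4 to Casp1 ratio ranged from -0.058 to 0.18, with the sign reversed without BPAP 1, that of Naip2 to Naip5 from 0.64 to 0.84 and that of Aim2 to Nlrp3 from -0.59 to -0.43. The log2 fold change of Dpp8 was 0.062 after the correction for exon length and GC content, against -0.23. Of 347 alternative values for single genes, 285 kept direction and call, 60 lost the call, 1 gained it and 1 reversed, where changes of sign in genes that were never called, such as Nek7 and Gsdmd, are counted as kept. Levels per length moved beyond 1 SD in 12 of 80 alternatives, all of them deposited FPKM. The cause of these changes was not tested.

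Same-numbered DMSO and BPAP libraries had deviations that correlated at 0.10, 0.05 and 0.01, so the numbers were not taken as pairs, although every library except DMSO 3 correlated best with its own number. With the replicate block, 4236 genes and 3 of the 9 passed. Depth limits Il1b and Naip3, which had 0 to 5 counts per library. For Pycard, with 0 counts in every library, depth sets only the upper limit given above.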

Other observations

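Tnpo1, which encodes a nuclear import receptor, had the pattern closest to that of Nek7, with a Pearson correlation of 0.991 over the 6 libraries. It was looked up after the values of Nek7 were seen. Tnpo1 was at 196, 181 and 418 CPM in DMSO and 359, 146 and 167 CPM in BPAP. As for Nek7, DMSO 3 and BPAP 1 were the 2 highest libraries. Of 8850 genes with at least 10 CPM, Nek7 and Tnpo1 were the 2 whose levels in both of these libraries were at least 1.5 times those in each of the other 4. At 2 times, Nek7 alone remained. The next genes in correlation with Nek7, Tmem186 at 0.944 and H2-T10 at 0.929, lay between 18 and 22.8 CPM and between 9.43 and 13.2 CPM.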
